A study of Mus musculus with 12 samples.

Results

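The comparison concerns mouse embryonic fibroblasts that received both the scaffold protein KSR1 and the oncogenic Ras mutant H-RasV12, set against the same fibroblasts with green fluorescent protein (GFP) alone. It was chosen by the array titles and holds 6 of the series' 12 Affymetrix arrays, 3 for each line, and 12422 of the 12488 probe sets, the other 66 being controls. All cells were KSR1 -/- fibroblasts of DBA background strain and all carried GFP, so the endogenous gene was disrupted in both lines. The line with both transgenes (the double line) expressed H-RasV12, KSR1 and GFP, and its counterpart expressed GFP. The remaining 6 arrays came from a line with KSR1 and GFP and a line with H-RasV12 and GFP. Each condition was 1 cell line. Nothing in the labels states that the 3 arrays of a line came from separate cultures, so the p-values measure the spread between arrays, which may be technical. They do not measure the spread between independently made lines.

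KSR1 holds Raf, MEK and ERK together, so that signals from Ras pass more readily along this kinase cascade. H-RasV12 stays bound to GTP and signals without a growth factor. In fibroblasts, active ERK is known to raise immediate early genes and their feedback inhibitors, and oncogenic Ras is known to lower contractile and matrix genes and to change glucose and mitochondrial metabolism. The comparison asks for the net difference between cells that have neither KSR1 nor oncogenic Ras and cells that have both.

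Values are MAS5 signals, a linear intensity for each probe set, given per array in the order of replicates 1, 2 and 3. Signals of different probe sets cannot be set against each other, because probes differ in brightness. Changes are log2 fold changes ± SE of the double line over GFP on the log2(signal + 23) scale, on which the changes of dim genes come out too small. A probe set entered the test if 3 or more of the 12 arrays read above 182.0, the median signal of the whole table. A probe set was called when its limma p, adjusted over 6891 tested probe sets, was under 0.05. Of the 12422 probe sets, 6891 were tested and 5531 lay below this filter. Arrays of the double line correlated with each other with Pearson's r of 0.911 to 0.947 over probe sets, arrays of the GFP line with r of 0.925 to 0.965, and arrays of the 2 lines with r of 0.809 to 0.863. The number of arrays limits the precision. Replicate 1 stood apart in both lines in its beta-actin control, and in its 18S ribosomal RNA control in the double line. In the GFP line its 18S control was the lowest but lay near that of replicate 3. The 3' probe set of the beta-actin control read 8629, 21091 and 24552 in the double line, against 7981, 22137 and 21113 in the GFP line. The 18S ribosomal RNA control read 146.4, 2517 and 2048 in the double line, against 344.6, 1427 and 515.7 in the GFP line. Counts from a fit on replicates 2 and 3 alone are therefore given for all probe sets, for most of the larger lists and wherever they move a list's count by over 1.5 times.

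The array has 2 probe sets for Ksr1, the gene that was disrupted and then put back. The first read 301.2, 261.9 and 140.8 in the double line, against 143.7, 21.1 and 37.5 in the GFP line. Its replicate 1 and 2 arrays of the double line lay above every GFP array, and the third lay just below the highest GFP array. The change of +1.70 ± 0.62 did not pass the test (limma adjusted p = 0.0834), and it passed with the replicate number as a block (limma adjusted p = 0.0319). The same probe set read 933.4, 1605 and 207.3 in the line with KSR1 alone and 20.2, 32.2 and 14.2 in the line with H-RasV12 alone. The other probe set read 293.5, 323.7 and 265.2 in the double line, against 324.0, 225.5 and 232.3 in the GFP line, with no change past the test (+0.17 ± 0.23, limma adjusted p = 0.714). Where these probe sets lie relative to the disrupted part and to the transgene is not given in the sources used here. The transgene H-RasV12 was not analysed here.

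Between the double line and the GFP line, 1079 of the 6891 probe sets were called (15.7%), 532 higher (7.72%) and 547 lower (7.94%). Large changes were more often falls: of the called probe sets, 80 were higher and 159 were lower by at least 4-fold. Of the 1079 called, 428 differed by under 2-fold. The median change over all tested probe sets was -0.02, and the median SE was 0.24. Without overlap between the 3 arrays of each line were 1947 probe sets (28.3%), of which 1051 were called. On replicates 2 and 3 alone 1049 probe sets were called, 504 higher and 545 lower, and 858 of them were also called on all arrays. Without replicate 3 of the GFP line the count called higher was 348. Centring each array on its own median moved the median of all probe sets by 0.08 and gave 564 higher and 430 lower. The replicate block raised the count to 1319, which held all 1079. When each gene was represented by its brightest probe set, 437 of 5286 genes were called higher (8.27%) and 456 were called lower (8.63%). These gene shares are the background for the gene lists below, whose median is set beside a median of -0.02 over all genes.

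**Figure D1:**
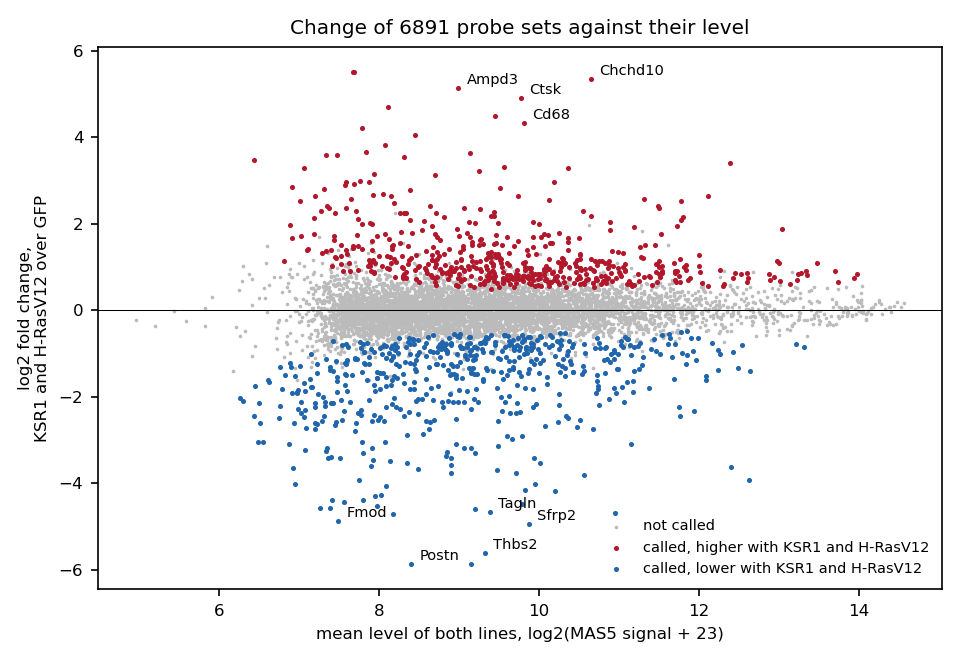
Log2 fold change of the double line over the GFP line (vertical axis) against the mean level of both lines on the log2(MAS5 signal + 23) scale (horizontal axis) for the 6891 tested probe sets, with each point 1 probe set, red called higher and blue called lower. The called falls reach as far as -5.88, and 159 falls against 80 rises exceed 4-fold.

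The 12 genes with the highest fold changes were taken from called genes whose arrays did not overlap between the lines. They had roles in mitochondria, lysosomes, purine and lipid metabolism, and the cell surface. Chchd10, a protein of the mitochondrial intermembrane space, read 9179, 9735 and 11384 in the double line, against 161.5, 254.6 and 277.2 in the GFP line (+5.34 ± 0.35, limma adjusted p = 2.48e-07). Ampd3, an AMP deaminase that turns AMP into IMP, read 2330.2, 3165 and 3119.8 in the double line, against 121.6, 45.7 and 31.2 in the GFP line (+5.14 ± 0.31, limma adjusted p = 1.21e-07). For both genes every array of the double line lay far above every GFP array, although the choice of genes already required arrays without overlap. Ctsk, the collagen-degrading cathepsin K, read 3828, 4753 and 4303 in the double line, against 319.5, 56.7 and 87 in the GFP line (+4.90 ± 0.50, limma adjusted p = 1.24e-05). Retreg1, a receptor for the autophagy of endoplasmic reticulum, read 2509, 3962 and 3182 in the double line, against 196.8, 118.8 and 66.1 in the GFP line (+4.50 ± 0.28, limma adjusted p = 1.21e-07). Tnfrsf9, a co-stimulatory receptor of the tumour necrosis factor receptor family, read 891.4, 1069.6 and 661.6 in the double line, against 67.7, 3.5 and 21.6 in the GFP line (+4.21 ± 0.43, limma adjusted p = 1.24e-05). The GFP arrays of Tnfrsf9 were all dim and spread widely on the log scale. Syngr1, a synaptogyrin of vesicle membranes, changed by +4.04 ± 0.43 (limma adjusted p = 1.53e-05). Prom1, a glycoprotein of membrane protrusions, changed by +3.58 ± 0.46 (limma adjusted p = 8.34e-05). Only the double-line arrays of Prom1 read above 182.0, so its entry into the test already fixed their separation from the GFP arrays. Slc27a1, a fatty acid transport protein, changed by +3.54 ± 0.66 (limma adjusted p = 0.00176). The remaining 4 of the 12, Ankrd1, Cd68, Mitf and Adm, are described with their groups.

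The 12 genes with the lowest fold changes, taken in the same way from called genes without overlap, were mostly genes of secreted and matrix proteins. Postn, the matricellular protein periostin, read 2.66, 36.7 and 23.5 in the double line, against 1440.1, 3448 and 2817 in the GFP line (-5.88 ± 0.37, limma adjusted p = 1.64e-07). Thbs2, a thrombospondin, read 148.0, 62.9 and 15.5 in the double line, against 5303, 4289 and 2856 in the GFP line (-5.61 ± 0.41, limma adjusted p = 7.01e-07). For both genes the brightest array of the double line was more than an order of magnitude dimmer than the dimmest GFP array. Il1rn, the interleukin 1 receptor antagonist, read 271.9, 533.4 and 281.3 in the double line, against 6562, 8429 and 15279.9 in the GFP line (-4.69 ± 0.39, limma adjusted p = 1.75e-06). Ptx3, a secreted pentraxin of innate immunity, read 99.1, 90.6 and 83.9 in the double line, against 1536, 3190.5 and 4211 in the GFP line (-4.60 ± 0.31, limma adjusted p = 2.55e-07). No double-line array of these genes reached the lowest GFP array, as the choice of genes required. The others of the 12 were Sfrp2, Fmod, Tagln, Ndn, Nid2, Meg3, Mgp and Ccn2, which are described with their groups.

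**Figure D2:**
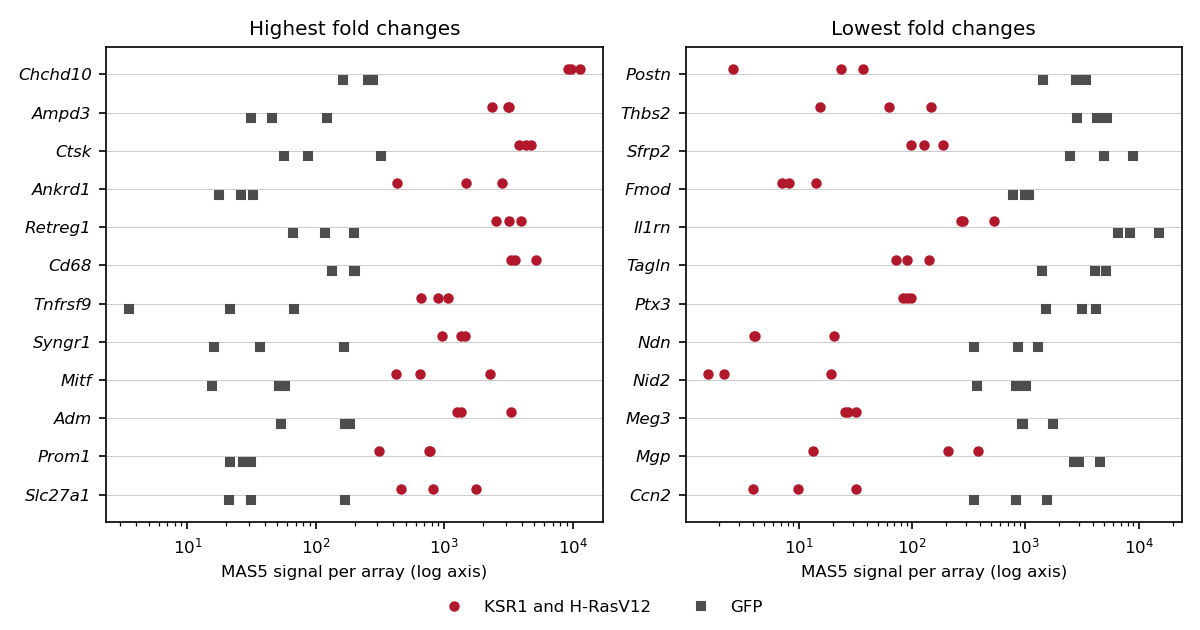
MAS5 signals (log axis) of the 12 genes with the highest and the 12 with the lowest fold changes among called genes whose arrays do not overlap, with 1 point per array, circles for KSR1 and H-RasV12 and squares for GFP. In every row the 3 circles lie on one side of the 3 squares, as the choice of genes requires.

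Genes of the pyruvate dehydrogenase complex and the citric acid cycle rose together. This pathway turns pyruvate into acetyl-CoA and oxidises it in the mitochondrial matrix. Of its 20 tested members 16 were called higher and 0 lower, with a median change of 0.80, and 13 were called higher on replicates 2 and 3 alone. Pdhb, the beta subunit of the E1 enzyme of pyruvate dehydrogenase, read 3050.4, 4223 and 5004 in the double line, against 1366, 1506 and 1482 in the GFP line (+1.45 ± 0.20, limma adjusted p = 0.000171). Idh3a, a subunit of the NAD-dependent isocitrate dehydrogenase, changed by +1.17 ± 0.24 (limma adjusted p = 0.00312). Mdh2, the mitochondrial malate dehydrogenase, read 10218, 13511 and 12176 in the double line, against 4683, 6238 and 5883 in the GFP line (+1.09 ± 0.18, limma adjusted p = 0.000534). All 4 subunits of succinate dehydrogenase, Sdha, Sdhb, Sdhc and Sdhd, were among the 16. The largest of these changes was that of Sdhd, a membrane anchor of the complex, at 5180.1, 6768 and 7108 in the double line, against 2278, 2865 and 2702 in the GFP line (+1.27 ± 0.18, limma adjusted p = 0.000171). The 4 members that did not pass were Sucla2 (+0.65 ± 0.27), which passed with the replicate block (limma adjusted p = 0.0274), Dlst (+0.48 ± 0.17), Pdha1 (+0.43 ± 0.22) and the cytosolic Mdh1 (+0.10 ± 0.22).

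The promoter window of Sdhd, from RefSeq on GRCm38.p6, is shown because the oestrogen-related receptors (ERRs) are known to act on genes of this pathway and the window holds their full response element. It runs from 250 bases before to 50 bases after the gene's start at chr9:50603800-50604099 on the minus strand, and the capitals mark the element TCAAGGTCA, read here on the opposite strand.
Sdhd: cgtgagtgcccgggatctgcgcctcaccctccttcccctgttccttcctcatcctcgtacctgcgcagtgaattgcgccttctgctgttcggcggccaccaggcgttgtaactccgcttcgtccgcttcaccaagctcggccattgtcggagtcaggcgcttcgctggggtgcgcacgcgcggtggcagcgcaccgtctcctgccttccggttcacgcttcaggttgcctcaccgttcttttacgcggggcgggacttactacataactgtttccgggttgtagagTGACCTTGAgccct
Both strands of all windows were searched. TCAAGGTCA stood in 1 of 23 windows of the 18 pathway genes that had one, in 0 of 5 windows of the PGC-1alpha and ERR-alpha list described next, and in 0.423% of all 32851 windows. A match of letters is not a bound site.

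The list of the PGC-1alpha and ERR-alpha axis holds the coactivator PGC-1alpha, its partner ERR-alpha and genes they are known to raise. Esrra, which encodes ERR-alpha, read 1194, 893.5 and 1012 in the double line, against 677.3, 248.2 and 383.3 in the GFP line (+1.30 ± 0.30, limma adjusted p = 0.00753), and its second probe set changed in the same direction. Of the 5 tested members 4 were called higher, Chchd10, Cycs, Esrra and Sod2, and Gabpa was not called (-0.02 ± 0.25). Ppargc1a, which encodes PGC-1alpha, lay below the filter on low signals. It read 55.3, 155.9 and 115.3 in the double line, against 15.7, 16 and 11.8 in the GFP line, and in a fit without the filter the change was +1.73 ± 0.31 (limma adjusted p = 0.00317). All 3 double-line arrays of Ppargc1a lay above the GFP arrays, although most of these signals are dim. Sirt3, a mitochondrial deacetylase, also lay below the filter and changed by +1.46 ± 0.37 in that fit (limma adjusted p = 0.0271). The other members below the filter, Tfam (+0.48 ± 0.27, limma adjusted p = 0.401) and Vdac1 (-0.26 ± 0.40, limma adjusted p = 0.831), did not pass in that fit. Their arrays overlapped between the lines. The list was chosen with results of these data known, and Chchd10 belongs to it as well as to the highest changes.

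Subunits of oxidative phosphorylation rose in part. Of 56 tested genes 22 were called higher and 1 was called lower, with a median change of 0.60. The count called higher was 17 on replicates 2 and 3 alone, 13 without replicate 2 of the double line and 14 when the fit held the 6 arrays alone. Cycs, the somatic cytochrome c, read 1593, 1439 and 2121 in the double line, against 677.8, 460.6 and 417.3 in the GFP line (+1.70 ± 0.29, limma adjusted p = 0.000824). Uqcrc1, a core protein of complex III, changed by +1.05 ± 0.16 (limma adjusted p = 0.000444). The called members came from every complex, with Ndufs1 of complex I (+0.92 ± 0.15), Cox5b of complex IV (+0.64 ± 0.20) and Atp5o of the ATP synthase (+1.02 ± 0.18) as examples. Ndufa7 of complex I was the member called lower (-0.64 ± 0.20, limma adjusted p = 0.0423), and that call was lost without any of several arrays, among them replicates 2 and 3 of both lines. The probe sets of Cyc1 disagreed in sign, at 1.09 for the brighter and -0.32 for the other. Cox7a1, the heart and muscle isoform of a complex IV subunit, lay below the filter and was picked out after its values were seen. It read 245.0, 227.3 and 130.9 in the double line, against 7.04, 12.9 and 13.2 in the GFP line (+2.68 ± 0.24 in the fit without the filter).

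Neighbouring mitochondrial groups had fewer calls. Of 16 tested genes of mitochondrial fatty acid oxidation, 4 were called higher and 0 lower, with a median of 0.43. Hadhb, the beta subunit of the trifunctional protein, had the largest change (+1.35 ± 0.18, limma adjusted p = 0.000121). The count was 1 without replicate 2 and 2 without replicate 3 of the double line. Of 44 tested genes of the mitochondrial ribosome, import machinery and carriers, 6 were called higher and 0 lower, with a median of 0.29. That count was 3 without replicate 1 of the GFP line, 2 without its replicate 3, and 11 with the replicate block.

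Glucose uptake and glycolysis rose as well. Of 17 tested members 10 were called higher and 0 lower, with a median change of 0.82, and 10 were called higher on replicates 2 and 3 alone. Slc2a1, the glucose transporter GLUT1, read 3892, 4527 and 3346 in the double line, against 657.9, 383.5 and 214.0 in the GFP line (+3.28 ± 0.41, limma adjusted p = 6.26e-05). Pfkp, the platelet isoform of phosphofructokinase, read 2428, 3667 and 3687 in the double line, against 412.6, 377.1 and 377.6 in the GFP line (+2.97 ± 0.20, limma adjusted p = 2.57e-07). Hk2, an inducible hexokinase, read 1501, 2298 and 2076 in the double line, against 457.4, 533.6 and 373.1 in the GFP line (+2.04 ± 0.22, limma adjusted p = 1.53e-05). The changes within enzyme families were uneven. Among phosphofructokinase isoforms Pfkp was called and Pfkl (+0.47 ± 0.39) and Pfkm (+0.17 ± 0.21) were not, and among hexokinases Hk2 was called and Hk1 (-0.14 ± 0.26) was not. Whether these isoforms differ from each other in their change was not tested. The common enzymes Aldoa (+0.82 ± 0.23), Tpi1 (+0.91 ± 0.19), Pgk1 (+0.84 ± 0.19) and Pgam1 (+0.78 ± 0.19) were called with smaller changes.

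**Figure D3:**
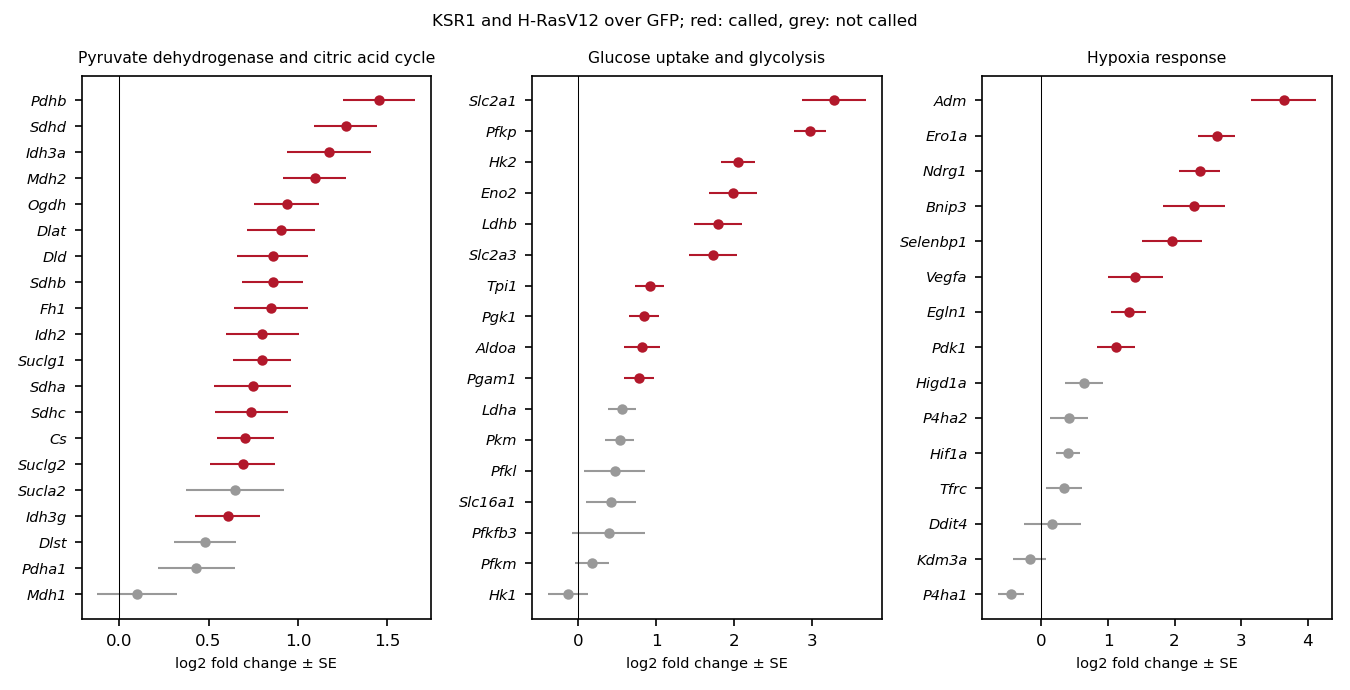
Log2 fold changes ± SE of the double line over the GFP line for the tested members of the pyruvate dehydrogenase and citric acid cycle, glycolysis and hypoxia lists, red where called and grey where not. In the first list 16 of 20 members were called, with changes between 0.61 and 1.45, while the called members of the other lists reach 3.28 and 3.64.

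Genes that cells are known to raise through hypoxia-inducible factors were also higher. Of 15 tested members 8 were called higher and 0 lower, with a median change of 1.12, and 10 were called higher on replicates 2 and 3 alone. Adm, the vasodilator adrenomedullin, read 1261, 3312 and 1337 in the double line, against 53.3, 167.1 and 185.2 in the GFP line (+3.64 ± 0.49, limma adjusted p = 0.000121). Ero1a, an oxidoreductase that forms disulfide bonds in the endoplasmic reticulum, changed by +2.63 ± 0.28 (limma adjusted p = 1.53e-05). Ndrg1, a stress-responsive gene, read 4266, 10514 and 5710.1 in the double line, against 1187, 1069 and 1381 in the GFP line (+2.38 ± 0.31, limma adjusted p = 8.86e-05). Bnip3, which directs mitochondria to autophagy, read 2627, 3995 and 2779 in the double line, against 1195, 518.9 and 366.1 in the GFP line (+2.29 ± 0.46, limma adjusted p = 0.00336). All double-line arrays of these genes lay above the GFP arrays, which for Adm its choice among the highest changes required. Hif1a itself was not called (+0.40 ± 0.18, limma adjusted p = 0.173), and neither were P4ha1 (-0.45 ± 0.20) and Kdm3a (-0.18 ± 0.24), which are known targets.

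The promoter window of Bnip3 is shown because it holds the E-box CACGTG, a sequence that hypoxia-inducible factors and other basic helix-loop-helix factors are known to bind. It lies at chr7:138909457-138909756 on the minus strand of GRCm38.p6, and the capitals mark the E-box.
Bnip3: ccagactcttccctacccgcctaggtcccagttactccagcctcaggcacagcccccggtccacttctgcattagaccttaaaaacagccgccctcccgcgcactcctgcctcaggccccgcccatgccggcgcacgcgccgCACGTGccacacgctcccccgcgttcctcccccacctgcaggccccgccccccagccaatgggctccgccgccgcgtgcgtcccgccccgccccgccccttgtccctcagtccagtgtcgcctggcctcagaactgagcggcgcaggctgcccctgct
CACGTG was present in 2 of the 19 windows of the 14 hypoxia genes that had one, those of Bnip3 and Hif1a, and in 7.15% of all 32851 windows, so the share among hypoxia genes was near that over all windows.

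Genes of the lysosome were higher in part. Lysosomes degrade proteins, lipids and glycans, and transcription factors of the MiT family are known to raise their genes. Mitf, a member of that family, read 416.9, 2262 and 641.9 in the double line, against 51.8, 57.7 and 15.4 in the GFP line (+3.83 ± 0.56, limma adjusted p = 0.000264). Rragd, a small GTPase that recruits the kinase complex mTORC1 to lysosomes, read 440.6, 578.2 and 489.8 in the double line, against 70.4, 47.6 and 22.2 in the GFP line (+2.97 ± 0.37, limma adjusted p = 6.26e-05). Cd68, a glycoprotein of the lysosomal membrane best known from macrophages, read 3559, 5184 and 3293 in the double line, against 199.9, 197.3 and 132.5 in the GFP line (+4.33 ± 0.22, limma adjusted p = 5.63e-08). For each of them the arrays of the 2 lines did not overlap, which the choice of Mitf and Cd68 among the highest changes required. Only the 3 double-line arrays of Mitf and of Rragd read above 182.0, so their entry into the test already fixed this separation. Of 22 tested genes of the lysosomal membrane and autophagy, 8 were called higher and 1, Npc2, was called lower (-0.77 ± 0.25), with a median change of 0.19, and 6 were called higher and 2 lower on replicates 2 and 3 alone. In that list 0 were called lower without any 1 array of the GFP line, or without replicate 2 or replicate 3 of the double line, and 2 without replicate 1 of the double line. Of 22 tested hydrolases and cathepsins 7 were called higher and 0 lower, with a median of 0.42. That count was 5 on replicates 2 and 3 alone, where 1 was called lower, and 4 without replicate 1 of the double line, without replicate 1 or replicate 2 of the GFP line, or with no filter. Beside Ctsk these were led by Lgmn, the asparaginyl endopeptidase legumain (+1.51 ± 0.29, limma adjusted p = 0.00227), and by Lipa, the lysosomal acid lipase (+1.39 ± 0.35, limma adjusted p = 0.0122). Among 14 subunits of the vacuolar ATPase, the proton pump that acidifies the lysosome, 3 were called higher and 0 lower, with Atp6v1b2 (+1.77 ± 0.23) and Atp6v1c1 (+1.31 ± 0.15) the larger of these. The membrane proteins Lamp1 (-0.12 ± 0.25) and Lamp2 (-0.30 ± 0.25) were not called.

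In the adipocyte list the largest rises were of genes that handle lipid. Plin2, which coats lipid droplets, read 15576, 18016 and 18482 in the double line, against 1948, 1405 and 1542 in the GFP line (+3.40 ± 0.19, limma adjusted p = 1.18e-07). Lpl, the lipoprotein lipase, read 212.9, 773.9 and 1201 in the double line, against 82, 126.5 and 60.6 in the GFP line (+2.48 ± 0.54, limma adjusted p = 0.00544). Only the double-line arrays of Lpl read above 182.0, so its entry into the test already fixed their separation from the GFP arrays. Of 11 tested members 3 were called higher and 2 lower, with Dlk1 (-2.91 ± 0.35) and Cebpa (-0.82 ± 0.21) the lower ones. Without 1 array at a time the list's count higher was 2 to 4 and its count lower 1 to 3. Klf5, the other member called higher (+1.09 ± 0.30), lost its call in 5 alternatives, among them replicates 2 and 3 alone. Enzymes of cholesterol synthesis and uptake gave 0 called higher and 1 lower, Mvk, of 14 tested, and that call was lost without replicate 1 or replicate 3 of the GFP line or replicate 3 of the double line. On replicates 2 and 3 alone 2 were called lower. The fatty acid synthase Fasn was not called (+0.12 ± 0.20, limma adjusted p = 0.776).

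Among glutathione and antioxidant genes, 6 of 29 were called higher (20.7%) and 3 lower (10.3%), with a median of 0.24. The share lower was near the 8.63% over all genes, and the share higher stood beside 8.27%. Srxn1, the sulfiredoxin that repairs peroxiredoxins, changed by +1.30 ± 0.26 (limma adjusted p = 0.00337), and its other probe set, at 0.44, was not called. The mitochondrial superoxide dismutase Sod2 read 842.2, 1029 and 1309 in the double line, against 487.8, 434.6 and 380.5 in the GFP line (+1.23 ± 0.26, limma adjusted p = 0.00434), while the secreted Sod3 read 1172, 373.1 and 217.4 in the double line, against 3835, 2056 and 2235 in the GFP line (-2.44 ± 0.43, limma adjusted p = 0.00119). The cytosolic Sod1 was not called (-0.11 ± 0.31, limma adjusted p = 0.879).

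**Figure D4:**
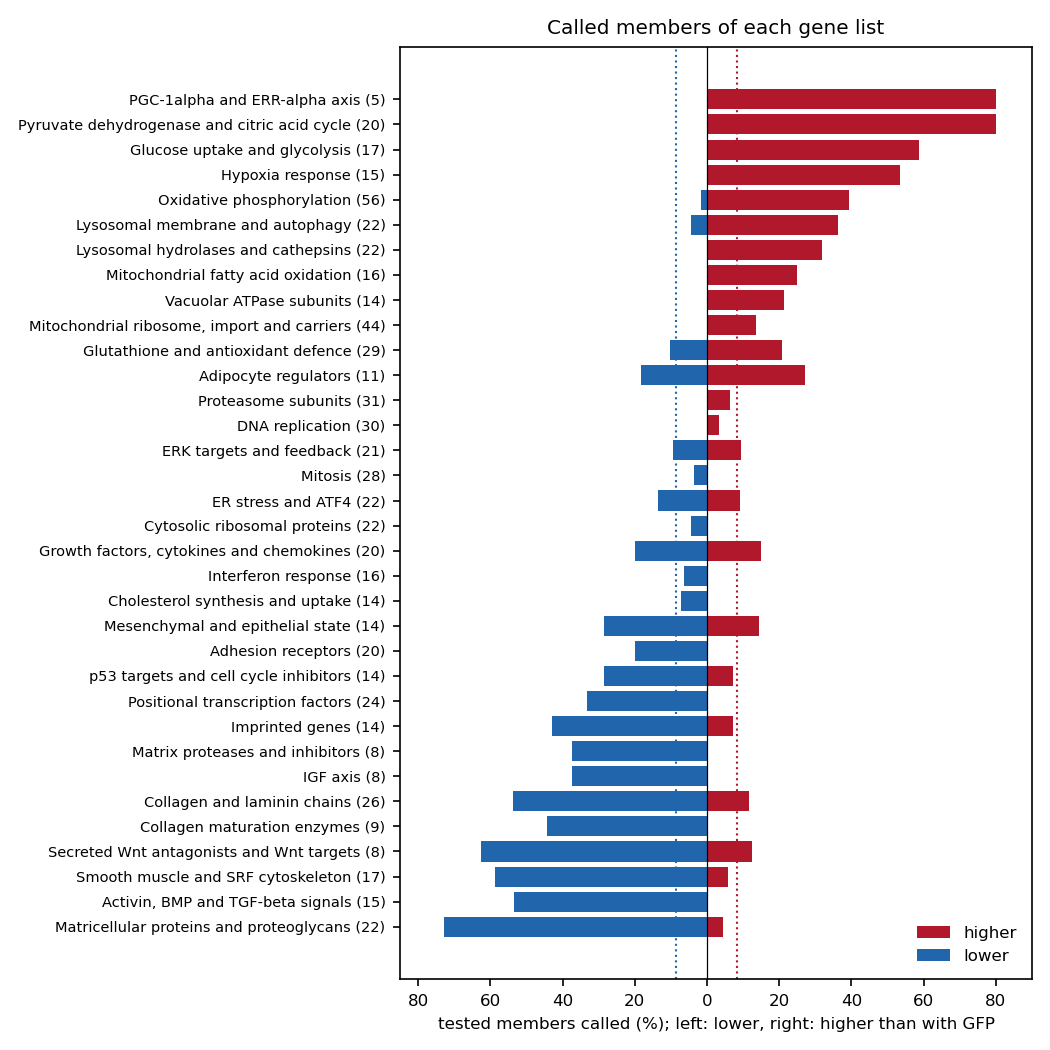
Share of tested members of each gene list that was called (horizontal axis, percent), lower to the left and higher to the right of 0, with the number of tested members in brackets and dotted lines at the shares over all tested genes, 8.27% higher and 8.63% lower. Metabolic and lysosomal lists extend mainly to the right, except cholesterol synthesis and uptake, which extends to the left alone. Matrix, contractile and secreted signal lists extend mainly to the left, but the list of growth factors, cytokines and chemokines extends both ways, 15% higher and 20% lower.

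Extracellular matrix genes were lower in the double line. Collagens, laminins and proteoglycans make up the matrix that fibroblasts are known for, and matricellular proteins bind to it and tune adhesion. Of 22 tested matricellular proteins and proteoglycans 16 were called lower and 1 higher, with a median change of -2.0, and 17 were called lower and 2 higher on replicates 2 and 3 alone. Fmod, a small proteoglycan that binds collagen fibrils, read 14.3, 8.19 and 7.15 in the double line, against 781.0, 996.7 and 1079 in the GFP line (-4.88 ± 0.47, limma adjusted p = 8.18e-06). Mgp, which inhibits calcification, read 384.1, 207.7 and 13.3 in the double line, against 3005, 2679 and 4604 in the GFP line (-4.48 ± 0.63, limma adjusted p = 0.000183). Ccn2, the connective tissue growth factor, read 32.2, 3.97 and 9.9 in the double line, against 351.3, 1559.8 and 821.6 in the GFP line (-4.44 ± 0.47, limma adjusted p = 1.53e-05). The CCN family did not move as 1 group: Ccn1 (-2.29 ± 0.35), Ccn3 (-2.25 ± 0.35) and Ccn5 (-2.56 ± 0.27) were also called lower, and Ccn4, known as a Wnt-induced gene, was the member called higher (+1.02 ± 0.19, limma adjusted p = 0.00167). Decorin (Dcn, -0.35 ± 0.33), lumican (Lum, -1.09 ± 0.37) and Fbln1 (-0.52 ± 0.33) were not called.

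Of 26 tested collagen, laminin and related chains 14 were called lower and 3 higher, with a median of -1.04, and 13 were called lower on replicates 2 and 3 alone. Col1a1, a chain of the main fibrillar collagen, read 4299, 1921 and 177.9 in the double line, against 14039, 19577 and 21962 in the GFP line (-3.94 ± 0.73, limma adjusted p = 0.00173). The double-line arrays of Col1a1 spread over more than 1 order of magnitude, and all lay below the GFP arrays. Its partner chain Col1a2 changed by -0.86 ± 0.18 (limma adjusted p = 0.00436), and a second probe set of Col1a2 by -0.02. Nid2, a basement membrane linker, read 1.6, 2.21 and 19.2 in the double line, against 374.6, 822.1 and 1026 in the GFP line (-4.57 ± 0.56, limma adjusted p = 5.72e-05). Col6a2 changed by -3.14 ± 0.34 (limma adjusted p = 1.65e-05). Its partner chain Col6a3, picked out after its values were seen, went the other way, at 9059, 8331 and 6162 in the double line, against 4865, 5048 and 3328 in the GFP line (+0.83 ± 0.22, limma adjusted p = 0.0175). The others called higher were Col7a1 of the anchoring fibrils (+2.65 ± 0.37, limma adjusted p = 0.000169) and Lama5, a basement membrane laminin chain (+2.25 ± 0.36, limma adjusted p = 0.000559). The basement membrane collagens Col4a1 (+0.31 ± 0.28) and Col4a2 (-0.19 ± 0.34) and fibronectin (Fn1, -0.19 ± 0.18) were not called.

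Enzymes that mature collagen gave 4 called lower and 0 higher of 9, and this count was 2 without replicate 2 of the double line and 2 without any 1 of the GFP arrays. Loxl1, which cross-links elastin and collagen, changed by -0.97 ± 0.23 (limma adjusted p = 0.00988). Of 8 tested matrix proteases and inhibitors, 3 were called lower, the protease inhibitors Timp1 (-0.93 ± 0.22) and Timp3 (-1.52 ± 0.28) and the serpin Serpinf1 (-1.62 ± 0.35), and 5 were called lower on replicates 2 and 3 alone. Of 20 adhesion receptors 4 were called lower and 0 higher, and 2 were called higher with the replicate block or without replicate 1 of the GFP line, and 1 on replicates 2 and 3 alone or under median centring. The called ones were led by Alcam, an adhesion molecule of the immunoglobulin family (-1.62 ± 0.29, limma adjusted p = 0.00129), and by the integrin chain Itgb5 (-1.24 ± 0.22, limma adjusted p = 0.00111). The median of that list, -0.08, was 0.00 when arrays were centred on their medians.

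Smooth muscle and contractile genes, many of which are known targets of serum response factor (SRF), were mostly lower. Of 17 tested members 10 were called lower and 1 higher, with a median of -1.08, and 10 were called lower on replicates 2 and 3 alone. Tagln, the actin-binding protein transgelin, read 142.6, 90.6 and 72.8 in the double line, against 1399, 4092 and 5142 in the GFP line (-4.68 ± 0.39, limma adjusted p = 1.75e-06). Acta2, the smooth muscle alpha-actin, read 708.5, 615.7 and 843.4 in the double line, against 3470.4, 8063 and 9061 in the GFP line (-3.10 ± 0.35, limma adjusted p = 2.46e-05). Myl9, a regulatory myosin light chain, read 85, 28.1 and 58.4 in the double line, against 460.4, 708.7 and 916.1 in the GFP line (-3.18 ± 0.47, limma adjusted p = 0.000269). Fhl1, a LIM domain protein of muscle, read 102.5, 97.6 and 120.8 in the double line, against 372.1, 2515 and 1976 in the GFP line (-3.28 ± 0.52, limma adjusted p = 0.000453). None of these 4 genes had an array of the double line within the range of the GFP line, which for Tagln its choice among the lowest changes required. Ankrd1, a muscle ankyrin repeat protein, read 1472, 429.2 and 2799 in the double line, against 26, 32.4 and 17.7 in the GFP line (+4.69 ± 0.47, limma adjusted p = 1.01e-05). The cytoskeletal members Tpm1 (+0.05 ± 0.27), Tpm4 (-0.13 ± 0.22), Vcl (-0.09 ± 0.27) and Actn1 (-0.47 ± 0.21) were not called, and Actn1 was called with the replicate block (limma adjusted p = 0.0466).

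The promoter windows of Fhl1 and Myl9 are shown because both genes fell and both windows hold the CArG box that SRF is known to bind, CC followed by 6 letters that are A or T and then GG. The windows lie on the plus strand of GRCm38.p6, at chrX:56779433-56779732 for Fhl1 and at chr2:156775214-156775513 for Myl9, and the capitals mark the box.
Fhl1: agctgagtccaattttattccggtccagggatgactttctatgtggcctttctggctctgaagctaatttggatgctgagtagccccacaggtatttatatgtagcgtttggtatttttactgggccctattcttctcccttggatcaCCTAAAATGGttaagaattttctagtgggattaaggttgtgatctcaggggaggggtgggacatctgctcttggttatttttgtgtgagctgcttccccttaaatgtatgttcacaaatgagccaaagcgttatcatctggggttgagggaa
Myl9: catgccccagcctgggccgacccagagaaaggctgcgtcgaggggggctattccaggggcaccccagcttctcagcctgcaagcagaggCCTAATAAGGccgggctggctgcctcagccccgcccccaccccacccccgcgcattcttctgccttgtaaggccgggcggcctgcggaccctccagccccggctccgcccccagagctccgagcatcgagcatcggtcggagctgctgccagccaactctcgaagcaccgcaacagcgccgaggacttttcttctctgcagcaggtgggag
A CArG box stood in 6 of the 17 windows of the 14 list genes that had one, those of Cnn2, Fhl1, Fhl2, Myl9 and Vcl, and in 1.63% of all 32851 windows. Many genes of the list were put there as known SRF targets, so this count is no independent finding. Of the 5 genes Cnn2 was also called lower (-1.35 ± 0.27), and Fhl2 (-0.23 ± 0.22) and Vcl were not called.

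Secreted signals and their regulators were lower in several families. Bmp4, a ligand of the bone morphogenetic protein (BMP) family, read 27.7, 31.8 and 21.9 in the double line, against 410.6, 987.9 and 2193 in the GFP line (-4.31 ± 0.44, limma adjusted p = 1.24e-05). The inhibitor Fst, which binds activin and BMPs, read 127.3, 7.29 and 33.4 in the double line, against 487.0, 690.1 and 646.3 in the GFP line (-3.30 ± 0.41, limma adjusted p = 6.29e-05). Id1 (-1.53 ± 0.42), Id2 (-2.18 ± 0.53) and Id3 (-2.05 ± 0.31), which BMP signals are known to raise, were called lower, as was the inhibitory Smad6 (-2.12 ± 0.28). Of 15 tested members of the activin, BMP and TGF-beta list 8 were called lower and 0 higher, with a median of -1.08, and 8 were called lower on replicates 2 and 3 alone. Tgfb1 read 787.7, 29.7 and 64.6 in the double line, against 234.3, 20.3 and 17.6 in the GFP line, so that the arrays overlapped and the gene was not called (+1.02 ± 0.97, limma adjusted p = 0.576).

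Among Wnt antagonists and targets 5 of 8 were called lower and 1, Ccn4, higher, with a median of -1.64. Sfrp2, a secreted Wnt antagonist, read 98.2, 186.8 and 128.3 in the double line, against 2508, 4938 and 8889.5 in the GFP line (-4.94 ± 0.41, limma adjusted p = 1.75e-06). Dkk3, a Dickkopf family member, changed by -2.53 ± 0.48 (limma adjusted p = 0.00219), and the Wnt receptor Fzd1 changed by -2.23 ± 0.39 (limma adjusted p = 0.00105). Of 8 tested members of the insulin-like growth factor (IGF) axis 3 were called lower, the binding proteins Igfbp2 (-2.28 ± 0.49), Igfbp3 (-2.60 ± 0.52) and Igfbp4 (-3.37 ± 0.57), whose other probe set, at -0.50, was not called. The ligands Igf1 (+0.15 ± 0.24) and Igf2 (+0.18 ± 0.38) were not called.

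Cytokines and growth factors went both ways. Of 20 tested members 3 were called higher and 4 lower, and 10 others lay below the filter. Without replicate 1 of the GFP line the counts were 6 higher and 2 lower, and on replicates 2 and 3 alone 6 higher and 3 lower. Ccl2, a chemokine that attracts monocytes, read 7949, 3672 and 10364 in the double line, against 1883, 2161 and 954.9 in the GFP line (+2.08 ± 0.36, limma adjusted p = 0.000931). Vegfa, the angiogenic growth factor, read 616.5, 1074 and 501.1 in the double line, against 434.7, 164.6 and 204.1 in the GFP line (+1.41 ± 0.41, limma adjusted p = 0.0296). Cxcl12, a homing chemokine, read 304.2, 238.2 and 266.7 in the double line, against 2306, 2978 and 5607 in the GFP line (-3.54 ± 0.31, limma adjusted p = 2.97e-06). The macrophage growth factor Csf1 read 871.4, 593.9 and 1329 in the double line, against 2450.4, 3307 and 3399 in the GFP line (-1.75 ± 0.27, limma adjusted p = 0.000447). Cxcl1 read 4272, 2128 and 4667 in the double line, against 3860.2, 245.5 and 892.7 in the GFP line, with replicate 1 of the GFP line near the double line, and was not called (+1.83 ± 0.65, limma adjusted p = 0.0762), but was called with the replicate block (limma adjusted p = 0.016).

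Transcripts that ERK is known to raise were called in both directions. Of 21 tested targets and feedback inhibitors 2 were called higher and 2 lower, shares near the 8.27% and 8.63% over all genes, with a median of -0.49. Ier3, an immediate early gene and ERK substrate, read 5456, 9723 and 5075 in the double line, against 1435, 1025 and 1142 in the GFP line (+2.42 ± 0.27, limma adjusted p = 2.52e-05). Fosl1, the AP-1 subunit FRA1, read 2291, 1536 and 1361 in the double line, against 877.7, 716.2 and 326.8 in the GFP line (+1.47 ± 0.38, limma adjusted p = 0.0147). The call for Fosl1 was lost without replicate 1 of the double line or replicate 3 of the GFP line (limma adjusted p up to 0.0793). Egr1, an immediate early transcription factor, read 695.2, 269.8 and 316.3 in the double line, against 706.0, 1093 and 1727 in the GFP line (-1.44 ± 0.38, limma adjusted p = 0.0168). Its call was lost without replicate 2 or replicate 3 of the double line or replicate 3 of the GFP line (limma adjusted p up to 0.0924). The ERK phosphatase Dusp6 read 577.4, 43.6 and 62.5 in the double line, against 380.4, 284.8 and 206.8 in the GFP line, with replicate 1 of the double line above every GFP array and the others below them (-1.02 ± 0.59, limma adjusted p = 0.3). The count called lower depended on single arrays: it was 9 on replicates 2 and 3 alone, 8 without replicate 1 of the double line, 4 without replicate 1 and 0 without replicate 3 of the GFP line, 1 without replicate 2 or replicate 3 of the double line, and 5 with the replicate block.

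Genes that mark mesenchymal identity and body position were lower in part. Prrx2, a homeobox factor of limb mesenchyme, read 523.6, 313.1 and 311.1 in the double line, against 4505, 5789.9 and 6536 in the GFP line (-3.82 ± 0.23, limma adjusted p = 1.18e-07). Snai2, a repressor of epithelial genes, changed by -1.81 ± 0.23 (limma adjusted p = 8.01e-05). Of 14 tested genes of the mesenchymal and epithelial state 4 were called lower and 2 higher, and 2 were called lower without replicate 3 of the double line. Krt19, a keratin of simple epithelia, read 1185, 1014 and 1427 in the double line, against 137.5, 105.6 and 111.1 in the GFP line (+3.12 ± 0.31, limma adjusted p = 1.01e-05). The cadherins Cdh1 (+0.01 ± 0.27) and Cdh2 (+0.76 ± 0.26) were not called, and Cdh2 was called with the replicate block (limma adjusted p = 0.037). Of 24 positional transcription factors 8 were called lower and 0 higher, with a median of -0.38. On replicates 2 and 3 alone 7 were called lower, and with the replicate block 1 was called higher. They included Hoxb9 (-2.13 ± 0.44, limma adjusted p = 0.00407), Hoxa5 (-1.82 ± 0.22, limma adjusted p = 5.82e-05), the HOX partner Pbx3 (-2.12 ± 0.36, limma adjusted p = 0.000824) and Six2 (-1.82 ± 0.38, limma adjusted p = 0.00436).

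Several imprinted genes, which are expressed from 1 parental copy and are known to control growth, were lower. Of 14 tested members 6 were called lower and 1 higher, with a median of -0.94. On replicates 2 and 3 alone 6 were called lower and 0 higher. Ndn, the growth suppressor necdin, read 4.08, 20.5 and 4.14 in the double line, against 352.6, 863.8 and 1289 in the GFP line (-4.58 ± 0.51, limma adjusted p = 2.26e-05). Meg3, a long noncoding RNA, read 27.3, 31.9 and 25.6 in the double line, against 960.1, 940.8 and 1744 in the GFP line (-4.54 ± 0.36, limma adjusted p = 1.54e-06). Dlk1, a neighbour of Meg3 in the same imprinted cluster that is expressed from the other parental copy, was called lower as well (-2.91 ± 0.35, limma adjusted p = 5.2e-05). Mest changed by -3.92 ± 0.61 (limma adjusted p = 0.0004) and Sgce by -3.27 ± 0.32 (limma adjusted p = 9.67e-06). Peg3, picked out after its values were seen, was the member called higher, at 1071, 887.0 and 870.6 in the double line, against 68.6, 179.3 and 653.1 in the GFP line (+2.05 ± 0.57, limma adjusted p = 0.0239). The third GFP array of Peg3 lay nearer to the double line than to the other GFP arrays.

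Few cell cycle genes were called. Of 30 tested genes of DNA replication 1 was called higher and 0 lower, with a median of 0.01, and of 28 genes of mitosis 0 were called higher and 1 lower, with a median of -0.04 that became 0.05 under median centring. The shares called lay below the 8.27% and 8.63% over all genes, also where 2 genes of DNA replication were called higher, with the replicate block or on replicates 2 and 3 alone. Mki67, a proliferation marker, read 2053, 1696 and 2026 in the double line, against 2458, 2116 and 1950.0 in the GFP line, and was not called (-0.17 ± 0.17, limma adjusted p = 0.594). Ccnd1, the ERK-responsive cyclin D1, read 2769.8, 1368 and 1887 in the double line, against 2325, 3514 and 2485 in the GFP line, and was not called either (-0.50 ± 0.23, limma adjusted p = 0.192). Of 14 p53 targets and cell cycle inhibitors 4 were called lower and 1 higher, with a median of -0.64. The lower ones were led by the CDK4 and CDK6 inhibitor Cdkn2c (-1.09 ± 0.26, limma adjusted p = 0.0103) and by the antiproliferative Btg2 (-1.02 ± 0.23, limma adjusted p = 0.00715). The count lower was 7 with the replicate block, 2 without replicate 3 of the GFP line, 6 without its replicate 1, and 2 under median centring. On replicates 2 and 3 alone 5 were called lower and 0 higher. The CDK inhibitor Cdkn1a was not called (-0.60 ± 0.24, limma adjusted p = 0.115).

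Housekeeping lists held calls in shares near or below the 8.27% higher and 8.63% lower over all genes. Of 22 cytosolic ribosomal proteins 0 were called higher and 1 lower (4.55%), with a median of -0.07. Of 31 proteasome subunits 2 were called higher (6.45%) and 0 lower, with a median of 0.20 and 26 members above 0. On replicates 2 and 3 alone 0 ribosomal proteins were called, and 1 proteasome subunit was called higher. The interferon list, with a median change of -0.54 and 1 of its 16 tested members above 0, had 0 called higher and 1 lower, Tap1. It had 3 called lower on replicates 2 and 3 alone, 4 with the replicate block or without replicate 1 of the double line, and 0 without replicate 2 or replicate 3 of the double line or replicate 1 of the GFP line. Of 22 genes of endoplasmic reticulum stress and ATF4 2 were called higher and 3 lower, beside 8.27% and 8.63% over all genes. With the replicate block 4 were called higher and 4 lower, and on replicates 2 and 3 alone 1 was called higher and 2 lower. The count lower was 1 under median centring, without replicate 2 or replicate 3 of the double line, or without replicate 1 of the GFP line. Atf3, a stress-induced factor that also responds to ERK, read 501.9, 899.7 and 1424 in the double line, against 273.5, 251.9 and 222.2 in the GFP line (+1.71 ± 0.30, limma adjusted p = 0.00101), and its other probe set, at 0.52, was not called. Slc3a2, the heavy chain of amino acid transporters, changed by -1.08 ± 0.24 (limma adjusted p = 0.00582), and Ddit3 (CHOP) was not called (-0.09 ± 0.30, limma adjusted p = 0.903).

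Markers were used to check the labelled cell type. The fibroblast markers, 15 on the array, summed to signals of 24442 to 36994 in the double line, against 59568 to 76750 in the GFP line, and 5 of the 12 tested were called lower. Such a sum follows its brightest probe sets and does not describe every marker. Col1a1 averaged 2133 in the double line and 18526 in the GFP line, and Ctsk of the osteoclast markers averaged 4295 and 154.4. Pdgfrb, a mesenchymal growth factor receptor, read 59.6, 32.2 and 7.06 in the double line, against 540.6, 412.2 and 395.7 in the GFP line (-3.18 ± 0.46, limma adjusted p = 0.00021), while Pdgfra read 1191, 1762 and 1598 in the double line, against 1711, 1036 and 1552 in the GFP line, and was not called (+0.09 ± 0.22, limma adjusted p = 0.854). Vim, Thy1 and Fap lay below the filter. In the fit without it Fap changed by -1.12 ± 0.31 (limma adjusted p = 0.0437), without overlap between the arrays of the 2 lines. In that fit Thy1 changed by -0.45 ± 0.27 (limma adjusted p = 0.435). Vim read 56.7, 128.2 and 63.7 in the double line, against 104.0, 57.0 and 78.1 in the GFP line. In bulk RNA, fewer cells of a type and less RNA per cell cannot be told apart.

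The 15 leukocyte markers summed to 2141 to 2627 in the double line, against 1883 to 3061 in the GFP line, and 0 of the 4 tested were called. The defining marker Ptprc (CD45) read 10, 6.85 and 14 in the double line, against 12, 27.4 and 5.67 in the GFP line, and Adgre1 (F4/80) read 5.85, 14.4 and 3.97 in the double line, against 19.6, 18.8 and 22.8 in the GFP line. Both lay below the filter. The 6 osteoclast markers summed to 4038 to 5059 in the double line, against 274.4 to 700.4 in the GFP line, and Ctsk was the 1 member called of 2 tested. Acp5 and Calcr, which define the cell type, lay below the filter. Acp5 read 56.2, 43.9 and 43.9 in the double line, against 33.9, 56.3 and 20.2 in the GFP line, and Calcr read 1.71, 2.95 and 3.42 in the double line, against 4.94, 5.05 and 3.54 in the GFP line. The 10 epithelial markers summed to 1777 to 2189 in the double line, against 785.5 to 1227 in the GFP line, and Krt19 was the 1 member called of 3 tested. Epcam read 2.52, 31.4 and 6.72 in the double line, against 6.06, 5.08 and 8.81 in the GFP line, and Krt8 read 32.3, 16.5 and 12.5 in the double line, against 21.5, 30.4 and 7.67 in the GFP line. The 8 endothelial markers summed to 547.5 to 704.1 in the double line, against 770.1 to 890.1 in the GFP line, with 0 called of 2 tested. Of the 6 endothelial markers below the filter, Tek was lower (-1.34 ± 0.24, limma adjusted p = 0.00274) and Vwf higher (+0.95 ± 0.23, limma adjusted p = 0.0209) in the fit without the filter, both without overlap between the arrays of the 2 lines. The 11 neural markers summed to 3259 to 4586 in the double line, against 3160 to 4833 in the GFP line, with Map2 (-2.03 ± 0.44) and Uchl1 (-1.66 ± 0.26) called lower of 5 tested. The part of other cell types in the results was not tested beyond these values.

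The same double-line arrays were also set against each line with 1 transgene, in the same fit. These comparisons share the double-line arrays and are not independent of the one against GFP. Against KSR1 alone 1040 probe sets were called (15.1%), and against H-RasV12 alone 1022 were called (14.8%). Higher than in each of the other 3 lines were 240 probe sets (3.48%), and lower than in each were 178 (2.58%). Among the 12 leading rises some were above all other lines. Chchd10 averaged 10099 ± 1146 in the double line (SD, n = 3), 248.3 ± 130.2 with KSR1 alone, 277.7 ± 77.2 with H-RasV12 alone and 231.1 ± 61.3 with GFP alone. Cd68 averaged 4012 ± 1023 in the double line, 150.1 ± 10.6 with KSR1 alone, 177.2 ± 23.8 with H-RasV12 alone and 176.6 ± 38.2 with GFP alone. Against KSR1 alone Chchd10 changed by +5.37 ± 0.35 (limma adjusted p = 2.6e-07) and Cd68 by +4.52 ± 0.22 (limma adjusted p = 1.57e-08). Against H-RasV12 alone Chchd10 changed by +5.10 ± 0.35 (limma adjusted p = 4.13e-07) and Cd68 by +4.31 ± 0.22 (limma adjusted p = 5.94e-08).

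Many metabolic genes were also called higher against either line with 1 transgene. Of the 20 pyruvate dehydrogenase and citric acid cycle genes 16 were called higher against KSR1 alone and 15 against H-RasV12 alone. Of the 56 oxidative phosphorylation genes 34 were called higher against KSR1 alone and 24 against H-RasV12 alone. Over all tested probe sets 15.1% were called in either direction against KSR1 alone and 14.8% against H-RasV12 alone. Plin2 averaged 17358 ± 1560.5 in the double line, 3536 ± 706.0 with KSR1 alone, 2225 ± 230.9 with H-RasV12 alone and 1632 ± 282.6 with GFP alone. Pfkp averaged 3261 ± 721.4 in the double line, 419.7 ± 66.1 with KSR1 alone, 447.2 ± 64.6 with H-RasV12 alone and 389.1 ± 20.3 with GFP alone.

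For other genes the double line did not differ from KSR1 alone past the test. Ankrd1 averaged 1567 ± 1188 in the double line, 2745 ± 378.0 with KSR1 alone, 27.5 ± 11.3 with H-RasV12 alone and 25.4 ± 7.39 with GFP alone. Against KSR1 alone its difference of -1.15 ± 0.47 did not pass the test (limma adjusted p = 0.123). Tnfrsf9 averaged 874.2 ± 204.5 in the double line, 776.9 ± 362.3 with KSR1 alone, 5.62 ± 3.65 with H-RasV12 alone and 31 ± 33.1 with GFP alone, with +0.25 ± 0.43 against KSR1 alone (limma adjusted p = 0.761). Among the falls, Postn averaged 20.9 ± 17.2 in the double line, 15.7 ± 12.6 with KSR1 alone, 1279 ± 168.0 with H-RasV12 alone and 2569 ± 1027 with GFP alone. Its difference from KSR1 alone was +0.16 ± 0.37 (limma adjusted p = 0.827), and that of Thbs2 was -0.33 ± 0.41 (limma adjusted p = 0.67). A p that misses the threshold does not show that the lines are alike. Of the 17 SRF cytoskeleton genes 2 were called lower against KSR1 alone and 8 against H-RasV12 alone. The shares over all tested probe sets, in either direction, were 15.1% and 14.8%.

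Another set of genes was lowest in the double line. Bmp4 averaged 27.2 ± 4.98 in the double line, 921.6 ± 421.3 with KSR1 alone, 274.3 ± 34.4 with H-RasV12 alone and 1197 ± 909.5 with GFP alone. Aqp1, the water channel aquaporin-1, averaged 13.1 ± 3.18 in the double line, 2280.4 ± 267.8 with KSR1 alone, 1328 ± 594.8 with H-RasV12 alone and 773.9 ± 299.1 with GFP alone. Against GFP Aqp1 changed by -4.38 ± 0.33 (limma adjusted p = 7.7e-07), and against KSR1 alone by -5.99 ± 0.33 (limma adjusted p = 5.97e-08). Prrx2 averaged 382.6 ± 122.1 in the double line, 2792 ± 415.4 with KSR1 alone, 5133 ± 840.4 with H-RasV12 alone and 5610.3 ± 1027 with GFP alone. The ERK list gave 8 of 21 called lower and 0 higher against KSR1 alone, and 3 lower and 2 higher against H-RasV12 alone. Beside these counts stand the shares in either direction over all tested probe sets, 15.1% and 14.8%.

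**Figure D5:**
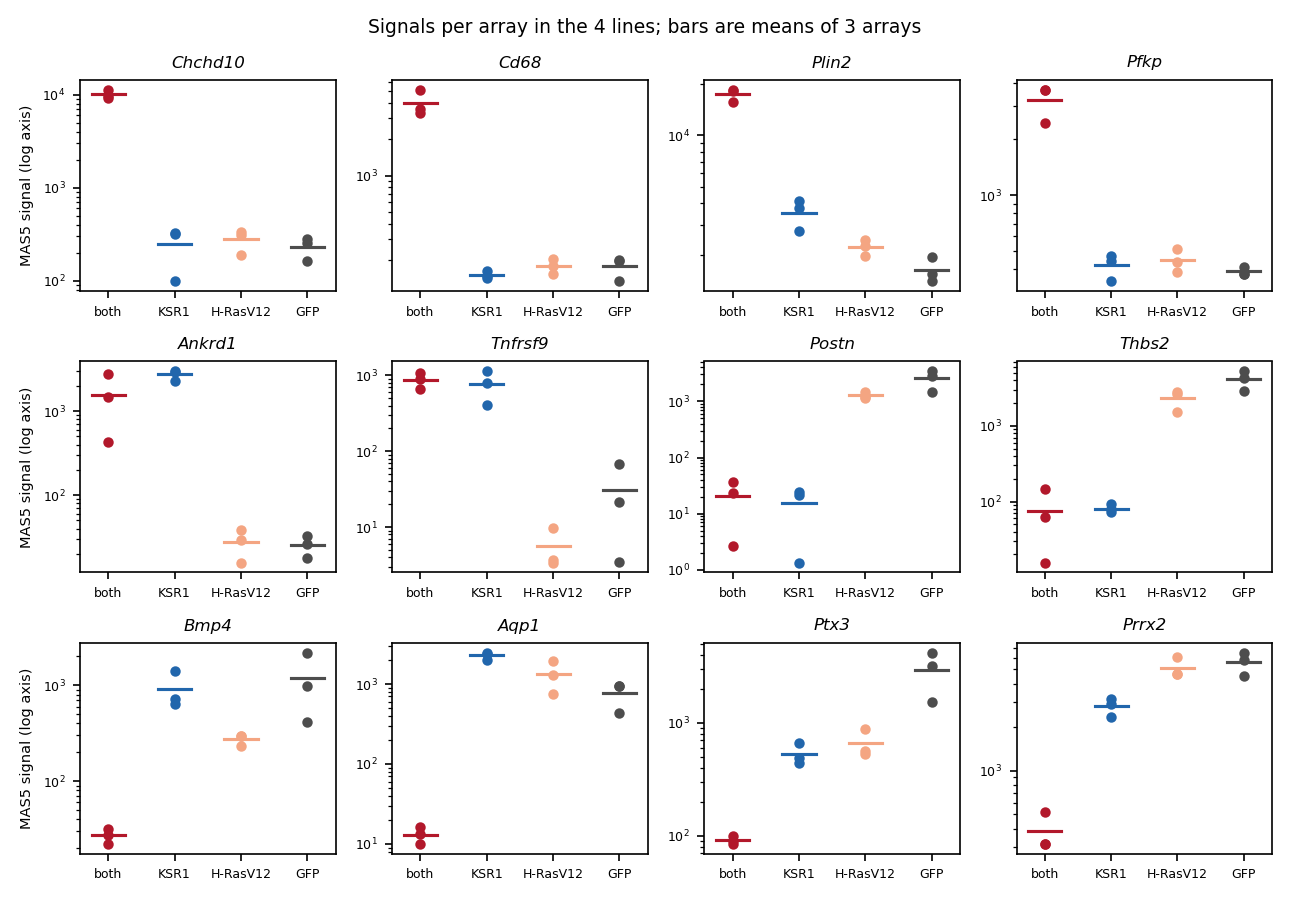
MAS5 signals per array (log axes) of 12 genes in the line with both transgenes, with KSR1, with H-RasV12 and with GFP, with points for arrays and bars for means of 3 arrays. Chchd10, Cd68, Plin2 and Pfkp are high in the line with both transgenes, and Bmp4, Aqp1, Ptx3 and Prrx2 are lowest there. Tnfrsf9, Postn and Thbs2 are near the line with KSR1. Ankrd1 is high in the line with KSR1 and, with a lower mean, in the line with both transgenes.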

How the data were processed

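Total RNA of 4 fibroblast lines, with 3 arrays each, was labelled with a 1-cycle kit for Affymetrix arrays, per the labels' protocols. The authors deposited intensity values that MAS5 had summarised per probe set on a linear scale, as the submitters' processing notes name it without a version. Their scaling left a 2% trimmed mean of 500.3 on every array, so no further scaling was applied. Gene names came from the platform annotation: 1 symbol belonged to 10833 probe sets, several to 396 and none to 1193, which are unnamed here. Promoter windows came from RefSeq (GRCm38.p6).

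One limma fit (limma 3.58.1, R 4.3.3) on log2(signal + 23), with 4 group means, an intensity trend and 8 residual degrees of freedom, served all contrasts, two-sided, with Benjamini-Hochberg adjustment over the 6891 tested probe sets. The pseudocount is the 20th percentile of all values. Values of probe sets below the filter come from a fit without it. For lists, a gene was represented by its probe set with the highest mean.

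The members and the 40 gene lists were chosen with earlier results of these data known. Named genes are the Ksr1 probe sets, the 12 highest and 12 lowest changes without overlap, the called list members with the largest changes (up to 4 a list), the 6 largest rises and falls against all other lines, and the PGC-1alpha and marker lists. The text takes a selection of these. Other names, mostly list members that were not called or that complete a family, were chosen after their values were seen. Hras and Ppargc1b were not analysed here.

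The replicate numbers come from the titles. Deviations from the group means correlated between same-numbered arrays of the 2 lines with r of 0.284, 0.101 and 0.100. Between differently numbered arrays of these lines r ran from -0.275 to 0.227, so for them a pairing by number is only weakly shown. Over all 4 lines r ran from -0.020 to 0.511 between same-numbered arrays, with 14 of 18 pairs over 0.1. It ran from -0.441 to 0.244 between differently numbered arrays. The main fit held no block. A fit with the number as a block is given where it changes the call of a named gene or moves a count by over 1.5 times. On simulated data with 100 probe sets changed by 2-fold and 100 by 4-fold, the fit recovered 60% and 96% of them for the double line against GFP over 6891 probe sets, with 8 unchanged probe sets called and 0 signs wrong.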

Additional observations from a re-analysis of the deposited data

How the results depend on the processing

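For KSR1+H-RasV12 against GFP, the 1079 calls (532 higher and 547 lower) became 1063 with a pseudocount of 1, 1079 with 100, 1045 without the filter, 1075 after quantile normalization, 994 after median centring, 1013 without the intensity trend and 780 with the 6 arrays alone. Requiring a signal above the median on all 12 arrays gave 637 calls and 280 lower, and it gave 619 calls for KSR1+H-RasV12 against KSR1 and 614 for KSR1+H-RasV12 against H-RasV12. That filter drops genes that are dim in 1 line. Without 1 array at a time the calls against GFP ran from 740 to 1170, those higher from 348 (without GFP replicate 3) to 540 and those lower from 392 to 630. The same range was 700 to 1185 against KSR1 and 721 to 1129 against H-RasV12. With the replicate number as a block 1319 were called, and of the genes named in the text Sucla2, Cxcl1, Cdh2, Actn1 and 1 Ksr1 probe set gained a call. Median centring moved the share of calls that were higher to 56.7%, from 49.3%. Of 129 named called probe sets 99 kept their call in all of the up to 22 alternatives in which they were tested, 30 lost it in at least 1 and 0 changed direction. The cause was not tested. Signals near the filter limit what can be read from dim probe sets.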
